A study of Mus musculus with 18 samples.

Results

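Mutations of Kit change more than the number of mast cells, and mast cells given back to a Kit-mutant mouse leave its other cells mutant. The comparison here therefore set the dura mater of Kit-mutant mice, with and without engrafted mast cells, against that of wild-type mice after stroke, and asked which genes differed in both mutant groups in the same direction. It rests on 9 arrays of the 18 in the series: 3 of mast cell-deficient and 3 of mast cell-engrafted mice, which together make the 6 Kit-mutant arrays, and 3 of wild-type mice. The members are the 478 probe sets (466 genes), out of 21640 tested, that met this rule. They were chosen by the values themselves, so the differences after stroke that follow are descriptions of the members, each with the result of the fit across all probe sets.

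The dura is the tough outer membrane of the brain, and each array holds the dura of 1 male mouse aged 17 to 21 weeks. Wild-type mice were WBB6F1-Kit+/+. Deficient mice were WBB6F1-KitW/W-v, and engrafted mice were KitW/W-v mice given mast cells intravenously 8 to 10 weeks before the experiment, so both groups carried the same W and W-v alleles in every cell of the host. In the stroke groups a filament blocked the middle cerebral artery for 30 min and the dura was taken at day 2, and naive mice of matched age (3 per category) had no operation. Sham-operated mice were not analysed here. In stroke minus naive differences the operation and the occlusion therefore cannot be told apart. The origin of the engrafted mast cells is not given in the sources used here.

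Kit is the receptor for stem cell factor. Mast cells need its signal to develop and survive, and it also acts in blood cell precursors, melanocytes, germ cells and the pacemaker cells of the gut, so KitW/W-v mice lack mast cells and are also anaemic, white-coated and sterile. The W allele yields a receptor that does not reach the cell surface and W-v one with weak kinase activity. Both are still transcribed. A transcript level therefore does not check the genotype. After injury, the cells of the meninges (fibroblasts, macrophages, vessels and arriving blood leukocytes) switch on secreted proteases, chemokines and growth factors.

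Values are log2 levels, on which a difference of 1 is a 2-fold change. They ran from 3.42 to 14.06, array medians lay at 7.77 to 7.91, and the correlation between arrays of 1 group, over all probe sets, was 0.985 to 0.995. Precision is limited by how few arrays there are: the median standard error (SE) of a Kit-mutant minus wild-type difference was 0.08. Transcripts of dura were high throughout: Col1a1, a chain of type I collagen, read 11.79 to 12.90, and the macrophage receptor Mrc1 10.50 to 11.40. So were some of brain, with the synaptic gene Snap25 at 12.08 to 13.06. Ttr, which marks the choroid plexus, read 9.03 in wild-type array 2 and 9.27 in deficient array 2 after stroke and 13.03 to 13.78 in the other 7 stroke arrays. Among naive arrays Ttr was at 9.25 to 10.17 in 3 Kit-mutant arrays and 13.38 to 13.73 in the other 6. No scan date or batch is given in the sources used here, so a batch that runs with genotype cannot be told apart from it.

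Kit (probe set 10522530) read 9.17, 8.92 and 8.80 in wild-type, 8.63, 8.76 and 8.71 in deficient and 9.29, 8.76 and 9.32 in engrafted dura after stroke. The groups overlapped, and the Kit-mutant minus wild-type difference was -0.05 ± 0.13 (SE; limma adjusted p = 0.90). In naive dura the 3 wild-type arrays read 9.36 to 9.83 and the 6 mutant arrays 8.91 to 9.19, a difference of -0.47 ± 0.13 (limma adjusted p = 0.18). Of the 40 genes nearest to Kit on its chromosome (20 on each side), 16 were measured. Of those, 0 passed in the limma comparison after stroke, with differences of -0.19 to 0.20. Mast cell genes separated the mutant groups: Cpa3, a carboxypeptidase of mast cell granules, read 5.67 to 5.82 in deficient, 9.47 to 9.79 in engrafted and 8.39 to 9.29 in wild-type dura after stroke. They thus stand outside the rule, and Mcpt2 and Tpsab1, the 2 of 19 measured mast cell genes that passed in the pooled comparison, differed in the deficient group alone (engrafted minus wild type 0.55 with an unadjusted p of 0.144, and -0.22 with 0.0939).

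After stroke 491 probe sets (2.27% of those tested) differed between Kit-mutant and wild-type dura, 160 higher (0.739%) and 331 lower (1.53%; limma, Benjamini-Hochberg adjusted p under 0.05). Each mutant group differed from wild type in the same direction, at an unadjusted p under 0.05, for 478 of them (2.21%): 158 were higher in both mutant groups (157 genes, 0.73% of those tested) and 320 lower (309 genes, 1.48%). Taken alone, the deficient group differed at 565 probe sets (2.61%) and the engrafted group at 89 (0.411%). For 75 of the 478 the adjusted p was under 0.05 in each group separately (0.347%). Members lower in both had a median difference of -0.51, with -0.58 in deficient and -0.42 in engrafted dura. Members higher in both had a median of 0.49, with 0.50 and 0.45. Just inside the threshold lay Il22ra1 (-0.34), Msx2 (0.25) and Idi1 (-0.45), and just outside it Atf4 (-0.29), Rarb (-0.35) and Ckap4 (-0.25).

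The number of members depended on single arrays, and it fell when a score of brain transcripts entered the fit. Without wild-type array 3 after stroke 149 probe sets met the rule, without wild-type array 1 it was 253, and without deficient array 2 it was 286 (152, 254 and 291 for the pooled comparison's 491). The higher members were the more affected: without wild-type array 3 the rule gave 20 higher probe sets in place of 158 and 129 lower in place of 320. A score over 12 neuron genes, the mean of their deviations from the mean of all arrays, was -0.85 to -0.48 in wild-type, -0.48 to 0.21 in deficient and -0.21 to 0.39 in engrafted dura after stroke. With that score as a covariate 52 probe sets met the rule, 47 of them among the 478. The score ran largely with genotype in these arrays, so this fit cannot tell it apart from genotype. The score's part in the result was not tested further. Among the members, 432 of the 478 had all 6 mutant arrays outside the wild-type range, against 1754 of all tested (8.11%), a count that the rule itself raises.

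The genes furthest below wild type were mainly genes that stroke had raised in wild-type dura. Of the 12 lowest, all had wild-type stroke levels above every naive wild-type level, and in naive dura 11 differed from wild type by at most 0.33, the exception being G530011O06Rik. Each of the 12 kept its adjusted p under 0.05 in all 22 alternative analyses, the one with the neuron score included.

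Mmp3 encodes stromelysin 1, which cleaves matrix proteins and activates other proteases. After stroke it read 10.83, 11.09 and 11.12 in wild-type, 8.21, 7.56 and 7.34 in deficient and 9.51, 9.84 and 9.59 in engrafted dura. The groups did not overlap: wild type was highest, engrafted between and deficient lowest. The pooled difference was -2.34 ± 0.15 (SE; limma adjusted p = 1.11e-06). All 9 naive arrays lay at 6.36 to 6.98, so the mutant stroke arrays were still above naive dura. Mmp3 was 1 of the members that engraftment moved, by 1.94 ± 0.18 over deficient dura (limma adjusted p = 0.00012), and it remained 1.37 below wild type on the log2 scale there.

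Reg3g, a secreted lectin that kills Gram-positive bacteria at epithelia, had the largest difference. It read 8.37, 7.55 and 9.14 in wild type, 5.76, 5.86 and 5.51 in deficient and 5.63, 6.23 and 6.12 in engrafted dura after stroke, a difference of -2.50 ± 0.23 (SE; limma adjusted p = 3.31e-05). Its mean lay below the lower quartile of the arrays (6.09 to 6.23) in all groups but wild-type stroke, where an array resolves levels poorly and may understate a difference. Naive arrays stood at 5.33 to 5.57.

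Prok2, the peptide prokineticin 2 that acts on G protein-coupled receptors and is made by neutrophils among other cells, read 8.60, 9.28 and 9.62 in wild-type, 6.89, 6.80 and 7.05 in deficient and 7.34, 7.51 and 7.20 in engrafted dura after stroke (difference -2.03 ± 0.15, SE; limma adjusted p = 3.67e-06). The 2 mutant groups lay close to each other and far below wild type. Naive levels were 6.37 to 6.70.

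Arg1, the arginase that splits arginine to ornithine and urea and marks repair-type macrophages, read 8.33, 7.98 and 8.26 in wild type after stroke. The deficient arrays read 6.20, 6.28 and 6.40 and the engrafted arrays 6.43, 6.57 and 6.73, against 6.17 to 6.50 in the mutant naive arrays. The difference from wild type was -1.76 ± 0.10 (SE; limma adjusted p = 2.46e-07), the smallest p among the members described. From naive to stroke Arg1 rose by 2.26 ± 0.11 in wild type and differed by 0.17 ± 0.08 in the mutants (limma adjusted p = 0.392). Its mean lay below the lower quartile of the arrays in wild-type naive dura, so 2.26 may understate the rise.

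Ccl2, the chemokine that draws monocytes, read 10.29, 9.33 and 9.37 in wild-type dura after stroke. Deficient arrays read 8.03, 8.04 and 7.96 and engrafted arrays 8.13, 8.43 and 8.52, against 7.47 to 8.10 over the naive arrays. All 6 mutant arrays were thus below the lowest wild-type array (-1.48 ± 0.17, SE; limma adjusted p = 0.000223).

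Genes of the outer epidermis made up 3 of the 12. Krtdap, a small secreted protein of differentiating keratinocytes, read 8.28 and 8.86 in 2 wild-type arrays and more in the third, 6.79, 5.89 and 6.20 in deficient and 7.29, 7.23 and 6.42 in engrafted dura after stroke (-2.08 ± 0.21). Tgm1, the transglutaminase that crosslinks the cornified envelope, read 10.02, 10.01 and 9.35, then 7.96, 7.91 and 8.09, then 7.96, 8.05 and 8.86 in the same order (-1.66 ± 0.17). Dmkn, the secreted protein dermokine, read 8.48, 8.48 and 9.05, then 7.21, 6.88 and 7.19, then 7.51, 7.12 and 7.38 (-1.45 ± 0.13). None of these mutant arrays reached the wild-type range. Naive levels were 5.16 to 5.63 for Krtdap, 7.44 to 7.89 for Tgm1 and 6.91 to 7.33 for Dmkn. All 3 naive groups of Krtdap lay below the lower quartile of the arrays. Of the 9 measured genes of the keratinocyte list, Krtdap and Tgm1 were lower (1.53% of all probe sets were) and 0 higher, and the list median was -0.08 against 0.00 over all 19937 genes. The list's score, which includes Krtdap and Tgm1, was 0.38 to 0.53 in wild-type and -0.07 to 0.12 in the 6 mutant stroke arrays.

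The remaining 4 genes were likewise apart from wild type on every array. Serpinb9b, a protease inhibitor that acts inside cells, lay at 8.68 to 9.41 in wild-type and 6.72 to 7.32 in the 6 mutant stroke arrays (-1.98 ± 0.14). Msln, mesothelin of the mesothelial cell surface, lay at 10.62 to 11.22 in wild-type and 8.73 to 9.93 in mutant arrays (-1.41 ± 0.18). Raet1d, a stress ligand for the NKG2D receptor of natural killer cells, lay at 8.50 to 8.68 and 6.81 to 7.69 (-1.34 ± 0.15). Msln and Raet1d rose with stroke in the mutants as well, by 1.21 ± 0.14 and 1.13 ± 0.12 (limma adjusted p = 0.000343 and 0.000136), less than in wild type. The naive means of Raet1d lay below the lower quartile of the arrays in wild-type and engrafted dura. G530011O06Rik, a RIKEN transcript, lay at 9.46 to 9.83 in wild-type stroke arrays and 7.12 to 8.77 in mutant ones. In naive dura its direction was the opposite, with 7.12 to 7.65 in wild type and 7.63 to 8.75 in the mutants (0.79 ± 0.24; limma adjusted p = 0.197).

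**Figure D1:**
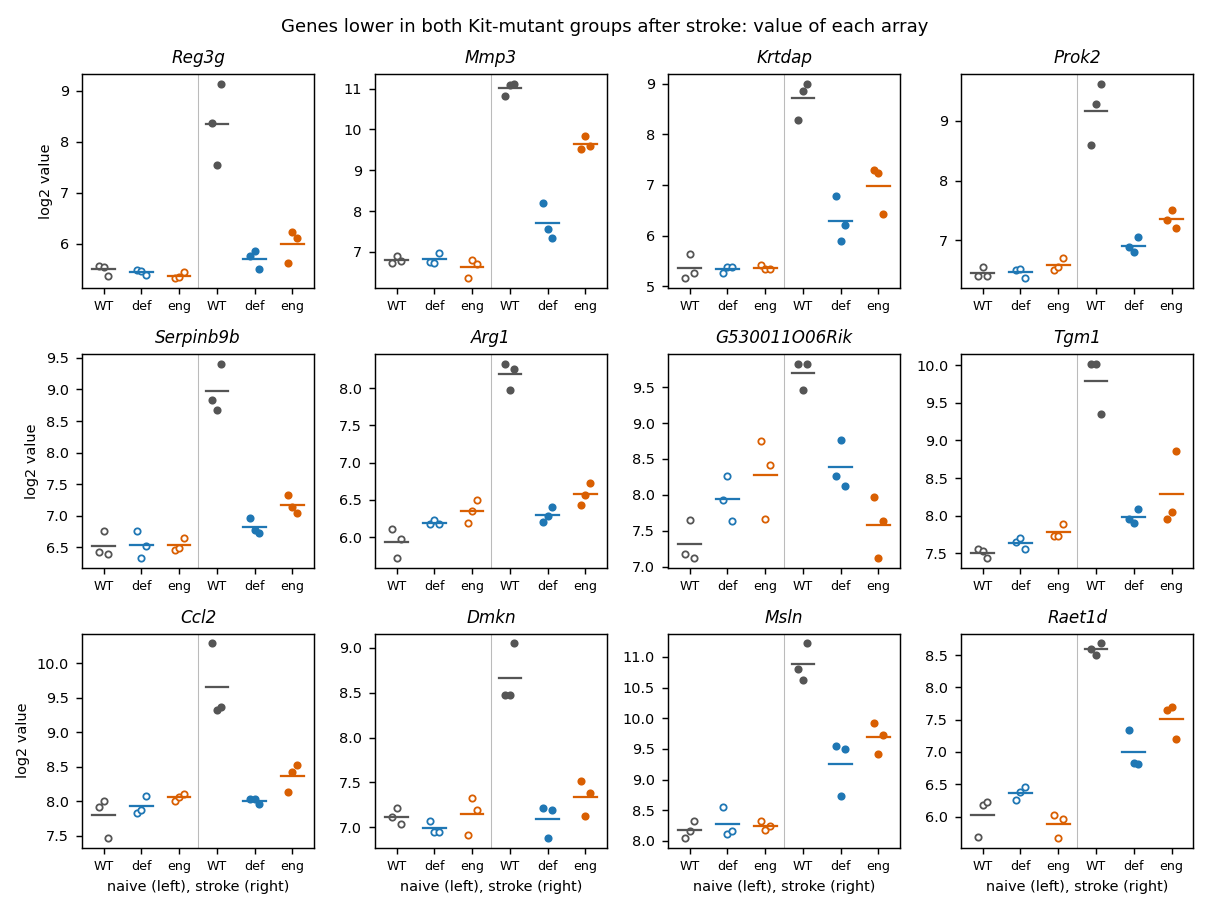
Log2 level on each array (vertical axis) of the 12 genes with the largest negative Kit-mutant minus wild-type difference after stroke, for wild-type (WT), deficient (def) and engrafted (eng) dura, naive at the left (open points) and after stroke at the right (filled points); horizontal bars are group means. In each panel the 3 wild-type stroke arrays are above the 6 mutant stroke arrays. For genes that include Mmp3, Prok2, Arg1 and Ccl2 the engrafted arrays lie between wild type and deficient.

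Of these genes 4 are shown with the stretch before their start because each holds the same 7 letters there. The motif TGANTCA, to which transcription factors of the AP-1 family (dimers of Fos and Jun proteins) bind, was searched on both strands of the 250 bases before the start in RefSeq promoters of GRCm38.p6. Stretches of 120 bases that end at the start are printed 5′ to 3′ on the gene's strand, with the motif in capitals: Mmp3 at chr9:7445702-7445821 (plus strand), Krtdap at chr7:30787785-30787904 (plus), Prok2 at chr6:99726393-99726512 (minus) and Dmkn at chr7:30763636-30763755 (plus).
Mmp3: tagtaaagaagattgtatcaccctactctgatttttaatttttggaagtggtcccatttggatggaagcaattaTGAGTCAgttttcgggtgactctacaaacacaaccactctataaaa
Krtdap: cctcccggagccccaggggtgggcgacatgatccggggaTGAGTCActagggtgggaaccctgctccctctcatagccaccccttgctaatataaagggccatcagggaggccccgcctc
Prok2: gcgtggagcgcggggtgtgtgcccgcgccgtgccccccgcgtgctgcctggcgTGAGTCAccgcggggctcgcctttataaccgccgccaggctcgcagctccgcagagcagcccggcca
Dmkn: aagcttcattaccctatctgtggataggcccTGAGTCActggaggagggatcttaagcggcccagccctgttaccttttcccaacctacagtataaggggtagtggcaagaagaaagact

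Each of the 4 holds TGAGTCA once, beginning 46 bases before the start in Mmp3, 81 in Krtdap, 67 in Prok2 and 89 in Dmkn. Among promoters of the 12 lowest genes 6 of 13 held TGANTCA (9 genes matched, some with several starts). These 6 promoters belong to the 4 genes printed. In all these counts several starts of 1 gene count separately, although their promoters can overlap. Among promoters of all members lower in both groups 36 of 285 did (12.6%), among those higher in both 10 of 152 (6.58%), and among all 32851 promoters 2217 (6.75%). A further motif, TGACNNNGC, which can overlap TGANTCA, was found in 14.0%, 10.5% and 10.2% of the last 3 sets, and TTCNNNGAA in 5.96%, 5.26% and 7.02%. In the 13 promoters of the 12 lowest genes these 2 motifs were found 0 times and 1 time. Of the 6 promoters matched for the 12 highest genes 1 held TGANTCA, 2 held TGACNNNGC and 0 held TTCNNNGAA. A match describes the letters only.

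The immediate early genes include the AP-1 subunits and are switched on within minutes of a stimulus. After stroke 6 of 20 measured members were lower in the mutants (1.53% of all probe sets were) and 0 higher, with a list median of -0.32. Fosl1, an AP-1 subunit with later and longer expression, read 7.48, 7.67 and 7.85 in wild type, 7.17, 7.09 and 7.05 in deficient and 6.89, 7.01 and 7.03 in engrafted dura (-0.63 ± 0.07; limma adjusted p = 0.000128). Jun lay at 10.92 to 11.24 in wild-type and 10.02 to 10.45 in mutant stroke arrays (-0.73 ± 0.11). From naive to stroke Jun fell by 0.43 in the mutants (limma adjusted p = 0.0197) and differed by 0.28 in wild type (limma adjusted p = 0.193). Ier3 and Maff had differences of -0.55 each. With the neuron score as a covariate Fosl1 kept its call, and Jun (highest adjusted p over the alternatives 0.144), Ier3 (0.188) and Maff (0.165) did not.

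Of 32 cytokine and chemokine genes, 7 were lower and 3 higher in the mutants (median -0.19), against 1.53% and 0.739% of all probe sets. Beside Prok2 and Ccl2, the lower ones included Il11, an interleukin 6 family cytokine made by fibroblasts, at 8.75, 7.63 and 7.81 in wild-type and 6.59 to 6.86 in mutant stroke arrays (-1.34 ± 0.17; limma adjusted p = 0.000558). The naive arrays of Il11 lay at 6.39 to 6.67. Ccl7, another monocyte chemokine, read 9.93, 9.35 and 9.03 in wild type and 7.81 to 8.81 in the mutants (-1.12 ± 0.18), and lost its call with the neuron score as a covariate (highest adjusted p over the alternatives 0.14). The 3 higher genes were named after their values were seen: Ccl8 (0.76 ± 0.16), Ccl24 (0.50 ± 0.12), both chemokines of resident macrophages, and Il34 (0.53 ± 0.10), a ligand of the macrophage growth factor receptor.

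Genes for remodelling of the matrix were lower for 7 of 17 measured members (1.53% of all probe sets were) and higher for 0. Their median was -0.22, with -0.36 in deficient and -0.09 in engrafted dura. Plaur, the receptor that holds urokinase at the cell surface, read 9.05, 9.19 and 9.29 in wild-type, 7.93, 7.85 and 7.99 in deficient and 7.99, 8.35 and 8.42 in engrafted dura after stroke (-1.09 ± 0.11; limma adjusted p = 6.66e-05). Adamts1 and Adamts4, proteases that cleave proteoglycans, differed by -0.78 ± 0.09 and -0.95 ± 0.15. With the neuron score Adamts1 kept its call and Adamts4 lost it (highest adjusted p over the alternatives 0.19). Adamts4 rose with stroke in wild type by 1.39 ± 0.18, whereas Adamts1 did not pass there (0.33 ± 0.10; limma adjusted p = 0.0521). Of 20 collagen genes 2 were lower, Col4a1 (-0.34 ± 0.08) and Col18a1 (-0.30 ± 0.07), both of basement membranes, and 0 higher. Both lost their call with the neuron score, Col4a1 under 11 and Col18a1 under 14 of the 22 alternatives. Tnfrsf12a, the receptor of the cytokine TWEAK, belongs to no list. It lay at 9.59 to 10.02 in wild-type and 8.66 to 8.88 in mutant stroke arrays (-1.01 ± 0.09; limma adjusted p = 3.15e-05), against 8.51 to 8.84 in naive dura.

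Leukocyte genes were lower for a minority of members, against 1.53% of all probe sets. Of 14 mature neutrophil genes 4 were lower and 0 higher (median -0.33, with -0.65 in deficient and -0.02 in engrafted dura): the decoy interleukin 1 receptor Il1r2 (-0.55 ± 0.11), the danger receptors Trem1 (-0.50 ± 0.10) and Clec4e (-0.80 ± 0.16), and the lectin Clec4d (-0.81 ± 0.13). Trem1 and Clec4e lay below the lower quartile of the arrays in all naive groups and in deficient stroke dura. All 4 lost their call with the neuron score as a covariate. Of 15 monocyte and macrophage genes 3 were lower: Arg1, the actin-capping Capg (-0.63 ± 0.09) and the endotoxin co-receptor Cd14 (-0.59 ± 0.10). With the neuron score Arg1 kept its call, and Capg (highest adjusted p over the alternatives 0.0782) and Cd14 (0.206) did not. Capg lay at 9.69 to 9.96 in wild-type, 8.97 to 9.10 in deficient and 9.18 to 9.53 in engrafted dura after stroke. In whole dura, fewer cells of a type and less RNA per cell cannot be told apart.

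Of 12 granulocyte precursor genes 0 passed in the pooled comparison and 0 between engrafted and deficient dura after stroke. The list median against wild type was -0.23 in deficient and 0.69 in engrafted dura. Their score was -0.06 to 1.03 in wild-type, -0.20 to 0.12 in deficient and 0.48 to 1.70 in engrafted dura after stroke. With that score as a covariate 440 probe sets met the rule, 373 of them among the 478.

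All 26 measured cell cycle genes had a difference below 0 (-1.03 to -0.09, median -0.45), and 4 passed (1.53% of all probe sets were lower). The list median was -0.70 in deficient and -0.28 in engrafted dura. The list's score after stroke was 0.53 to 0.91 in wild-type and -0.37 to 0.20 in deficient dura. In engrafted dura it was 0.00, 0.66 and 0.74, so 2 of the 3 arrays lay inside the wild-type range. Kif20a, a kinesin of cell division, read 8.53, 8.53 and 8.17 in wild-type, 7.32, 7.21 and 6.89 in deficient and 7.27, 7.87 and 7.73 in engrafted dura after stroke (-1.03 ± 0.14; limma adjusted p = 0.000841). Aurkb (-0.68 ± 0.16), Cenpf (-0.52 ± 0.12) and Cdc20 (-0.42 ± 0.10) had overlapping groups, each with an engrafted array inside the wild-type range. These 3 lost their call under 11 to 14 of the 22 alternatives, and Kif20a lost it with the neuron score alone (adjusted p = 0.0594). Of the list, 23 genes rose with stroke in wild type, where 6.24% of all probe sets did, and 19 in the mutants, where 2.24% did. Other lists had 1 lower member each, with list medians near or above 0. Pdpn, found in lymphatic vessels and fibroblasts (-0.44 ± 0.06), was 1 of 5 measured lymphatic genes (median 0.28). The interferon-induced Zbp1 (-0.64 ± 0.14) was 1 of 16 (median 0.08, 11 members above 0). The hypoxia-induced Adm (-0.57 ± 0.11) was 1 of 12 (median -0.04). The metal-binding Mt2 (-0.42 ± 0.08) was 1 of 8 glucocorticoid-induced genes (median -0.04), of which 1 was higher. With the neuron score Pdpn kept its call. Zbp1, Adm and Mt2 lost theirs, as they did under 7 or 8 of the 22 alternatives.

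Members higher in both mutant groups had a median stroke minus naive difference of -0.54 in wild-type and -0.12 in mutant dura, and members lower in both 0.69 and 0.17. The stroke arrays behind these medians also chose the members. Of the 12 with the largest positive difference, 5 are known mainly from neurons and myelin, 2 from cartilage matrix and 1 from plasma cells. Only Comp, Chrdl1 and Slc6a14 of the 12 kept their call in all 22 alternatives.

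Comp, cartilage oligomeric matrix protein, read 8.51, 8.36 and 8.09 in wild-type, 9.77, 10.02 and 9.40 in deficient and 9.15, 9.37 and 9.55 in engrafted dura after stroke (1.22 ± 0.16; limma adjusted p = 0.000622). All 6 mutant arrays were above the wild-type ones. They were also above them in naive dura, at 10.51 to 11.12 against 10.07 to 10.36, though that difference of 0.55 ± 0.16 did not pass (limma adjusted p = 0.193). Chrdl1, a secreted antagonist of bone morphogenetic proteins, read 9.78, 9.58 and 9.09, then 10.66, 10.89 and 10.81, then 10.29, 10.35 and 10.49 in the same order (1.10 ± 0.13; limma adjusted p = 0.000212). Its naive mutant arrays, at 11.12 to 11.65, were likewise above the wild-type ones at 10.88 to 11.05 (0.42 ± 0.13; limma adjusted p = 0.199).

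Of 12 cartilage and tendon genes, 1 was lower (1.53% of all probe sets were) and 4 were higher (0.739% were, list median 0.35). Beside Comp these were Chad, the matrix protein chondroadherin (1.09 ± 0.24), Fmod, the collagen-binding proteoglycan fibromodulin (0.83 ± 0.08), and Tnmd, tenomodulin of tendon (0.72 ± 0.16). Tnmd was named after its value was seen. Fmod lay at 11.25 to 11.56 in wild-type and 12.04 to 12.45 in mutant stroke arrays. It fell by 1.19 with stroke in wild type and by 0.61 in the mutants. The lower gene was Prg4, the joint lubricant lubricin, at 12.95, 13.06 and 13.15 in wild-type, 12.07, 11.67 and 11.87 in deficient and 12.45, 12.33 and 12.24 in engrafted dura (-0.95 ± 0.10; limma adjusted p = 0.000105). Prg4 rose with stroke by 1.84 ± 0.12 in wild type and by 0.94 ± 0.08 in the mutants.

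Slc6a14, a transporter of neutral and basic amino acids, was the only other member with a limma adjusted p under 0.05 between the mutant groups. It read 6.91, 6.97 and 6.79 in wild-type, 8.17, 8.89 and 8.42 in deficient and 7.38, 7.63 and 7.24 in engrafted dura after stroke (1.07 ± 0.13; limma adjusted p = 0.000287). Naive arrays lay at 8.52 to 8.97. Engrafted dura was below deficient dura (-1.08 ± 0.15; limma adjusted p = 0.0105), and engrafted minus wild type was 0.53 ± 0.15 (unadjusted p under 0.05, limma adjusted p = 0.143).

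Among the neuronal genes, Calb1, the calcium-binding protein calbindin, had the largest difference. It read 8.30, 7.55 and 8.43 in wild-type, 8.90, 9.47 and 9.44 in deficient and 10.30, 9.02 and 10.96 in engrafted dura after stroke, against 9.52 to 10.88 in naive dura (1.59 ± 0.36; limma adjusted p = 0.0325). The mutant arrays did not overlap wild type but spread over more than 2 log2 units. Vsnl1, a neuronal calcium sensor, read 10.29, 10.10 and 9.54, then 10.36, 11.62 and 11.29, then 11.70, 11.10 and 12.11 (1.39 ± 0.33). Omg, a myelin glycoprotein also made by neurons (1.29 ± 0.28), Nell2, a secreted neuronal protein (1.06 ± 0.21), and Gria3, a subunit of the AMPA glutamate receptor (0.85 ± 0.18), had the same shape.

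The neuron list, which holds none of these 5 genes, had all 12 members above 0 (lowest 0.23, median 0.61), and 0 passed. Its score was lowest in the wild-type stroke arrays, as given above. With it as a covariate none of the 5 passed, with highest adjusted p over the alternatives of 0.797 for Calb1, 0.568 for Vsnl1, 0.429 for Omg, 0.241 for Nell2 and 0.547 for Gria3. Of 8 measured astrocyte genes 2 were higher (0.739% of all probe sets were), Gjb6 (0.39 ± 0.10) and S100b (0.44 ± 0.07). The list median was 0.42, with 6 members above 0 and 2 below, the lowest at -0.51. Of 6 measured oligodendrocyte and Schwann cell genes 1 was higher, the myelin gene Mbp (0.65 ± 0.15), and all 6 lay above 0 (median 0.25). Gjb6, S100b and Mbp also lost their call in the fit with the neuron score. Kcnt1, a sodium-activated potassium channel, lay at 7.87 to 8.14 in wild-type and 8.50 to 9.06 in mutant stroke arrays (0.80 ± 0.12; limma adjusted p = 0.00176), and lost its call with the neuron score (highest adjusted p 0.11).

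**Figure D2:**
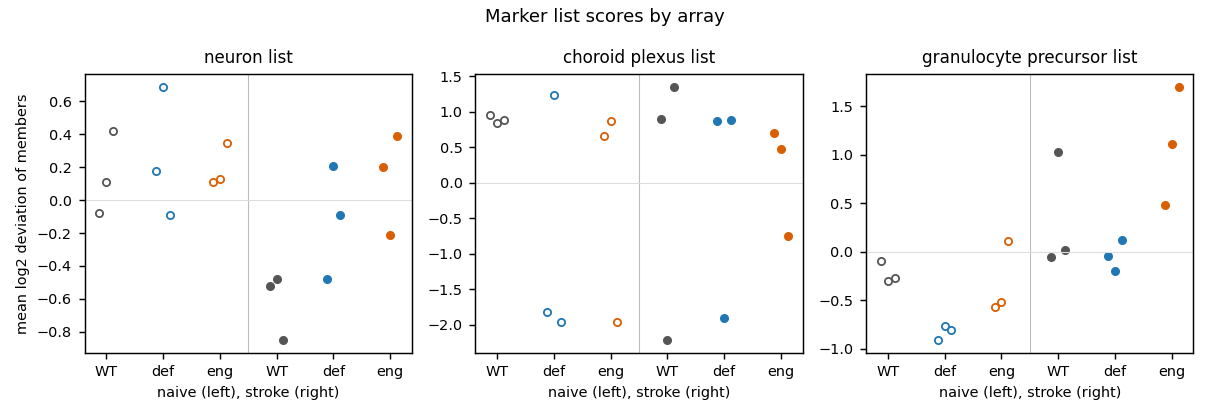
Mean log2 deviation of the members of the neuron, choroid plexus and granulocyte precursor lists on each array (vertical axes), for wild-type (WT), deficient (def) and engrafted (eng) dura, naive at the left (open) and after stroke at the right (filled). The neuron score is lowest in wild-type stroke arrays (-0.85 to -0.48), and the granulocyte precursor score is highest in engrafted stroke dura (0.48 to 1.70). The choroid plexus score is far lower in 3 naive Kit-mutant arrays, 1 wild-type and 1 deficient stroke array. It is also low in engrafted stroke array 3 (-0.75, against 0.70 and 0.47 in arrays 1 and 2).

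Of 8 MHC class II genes, which present antigen, 3 were higher (0.739% of all probe sets were) and all 8 lay above 0 (median 0.31). H2-Aa read 10.94, 10.84 and 10.65 in wild-type, 11.41, 11.51 and 11.45 in deficient and 11.10, 11.43 and 11.03 in engrafted dura after stroke (0.51 ± 0.11; limma adjusted p = 0.0246). H2-Ab1 and H2-Eb1 each had a difference of 0.45 ± 0.11 and lost their call under 16 of the 22 alternatives. H2-Aa lost it under 9, among them the fits without wild-type array 2 or 3 and without deficient array 2 or 3. In naive dura the 3 genes differed by 0.00 to 0.10, with limma adjusted p of 0.662 to 0.989. Of 11 resident dural macrophage genes 10 lay above 0 (median 0.31). Their score after stroke was -0.33 to -0.13 in wild-type, 0.03 to 0.15 in deficient and 0.01 to 0.17 in engrafted dura. Only 1 of the 11 passed, the lectin Cd209f, at 8.84 to 9.18 in wild-type and 9.59 to 10.03 in mutant stroke arrays (0.75 ± 0.16). Cd209f lost its call under 7 alternatives, among them the fits without wild-type array 1 or 3, without deficient array 2 and with the neuron score.

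Jchain, which links IgM and IgA into polymers, read 8.71, 8.33 and 8.68 in wild-type, 9.79, 10.32 and 10.12 in deficient and 9.84, 10.21 and 9.17 in engrafted dura after stroke (1.33 ± 0.30; limma adjusted p = 0.0316). It lost its call under 11 alternatives, among them each fit without a wild-type stroke array. A probe set of Ighm, the IgM heavy chain, had the largest positive value of all members (2.25 ± 0.54, limma adjusted p = 0.0398), with overlapping arrays. This probe set was named after its value was seen. A brighter one stands for the gene, and among probe sets that stand for a gene the highest difference was 1.59. B cell genes passed in 0 of 12 cases (median 0.16). Pla2g2d, a secreted phospholipase of dendritic cells and macrophages, lay at 7.91 to 8.47 in wild-type, 9.14 to 9.55 in deficient and 8.61 to 8.84 in engrafted dura (0.88 ± 0.16).

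Genes of the circadian clock list were higher for 4 of 14 measured members (0.739% of all probe sets were) and lower for 0 (median 0.23). The higher ones were Per3 (0.58 ± 0.12), Dbp (0.47 ± 0.12), Tef (0.40 ± 0.06) and Hlf (0.33 ± 0.07). All 4 lost their call with the neuron score, Dbp under 15 of the 22 alternatives, Per3 under 9, Hlf under 8 and Tef under 5. Tef, a transcription factor driven by the clock, read 9.72, 9.64 and 9.80 in wild-type, 10.10, 10.28 and 10.15 in deficient and 9.97, 10.05 and 10.17 in engrafted dura after stroke. The time of day at which dura was taken is not given in the sources used here. Of 8 measured glucocorticoid-induced genes 1 was higher, the transcription factor Zbtb16, and 1 lower, Mt2 (0.739% and 1.53% of all probe sets were). The list had 4 members above 0 and 4 below, with a median of -0.04. Zbtb16 read 9.40, 10.01 and 9.73 in wild-type, 10.89, 11.30 and 11.15 in deficient and 10.55, 10.29 and 11.38 in engrafted dura after stroke (1.22 ± 0.30; limma adjusted p = 0.0428). Its naive difference was 0.95 ± 0.30 (limma adjusted p = 0.209), and it lost its call under 14 alternatives.

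**Figure D3:**
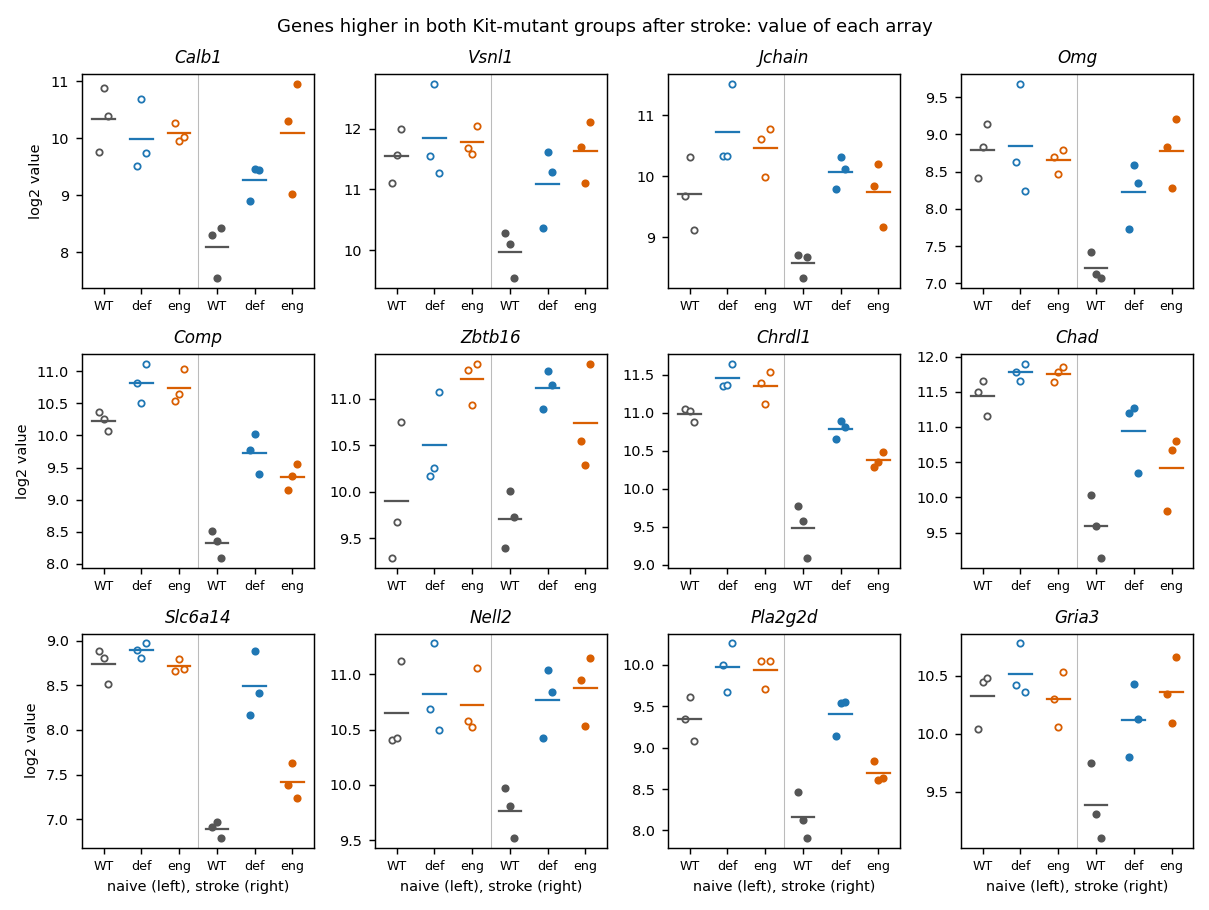
Log2 level on each array (vertical axis) of the 12 genes with the largest positive Kit-mutant minus wild-type difference after stroke, for wild-type (WT), deficient (def) and engrafted (eng) dura, naive at the left (open points) and after stroke at the right (filled points); horizontal bars are group means. In each panel but that of Chad the 3 wild-type stroke arrays are below the 6 mutant stroke arrays. For genes that include Chrdl1, Slc6a14 and Pla2g2d the engrafted arrays lie between wild type and deficient.

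Of the other lists, melanocyte (16 measured), erythroid (9), eosinophil (6), basophil (6), T and NK cell (11), megakaryocyte and platelet (5), bone and osteoclast (16), endothelial (10), skeletal muscle (11), choroid plexus (9) and pineal gland (7) had 0 members called in either direction. The erythroid median was 0.37, with all 9 members above 0. The adipocyte list had 1 higher member, Adipoq (0.70 ± 0.15), which differed in the engrafted group alone and lay below the lower quartile of the arrays in both wild-type groups. It lost its call under 9 alternatives.

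**Figure D4:**
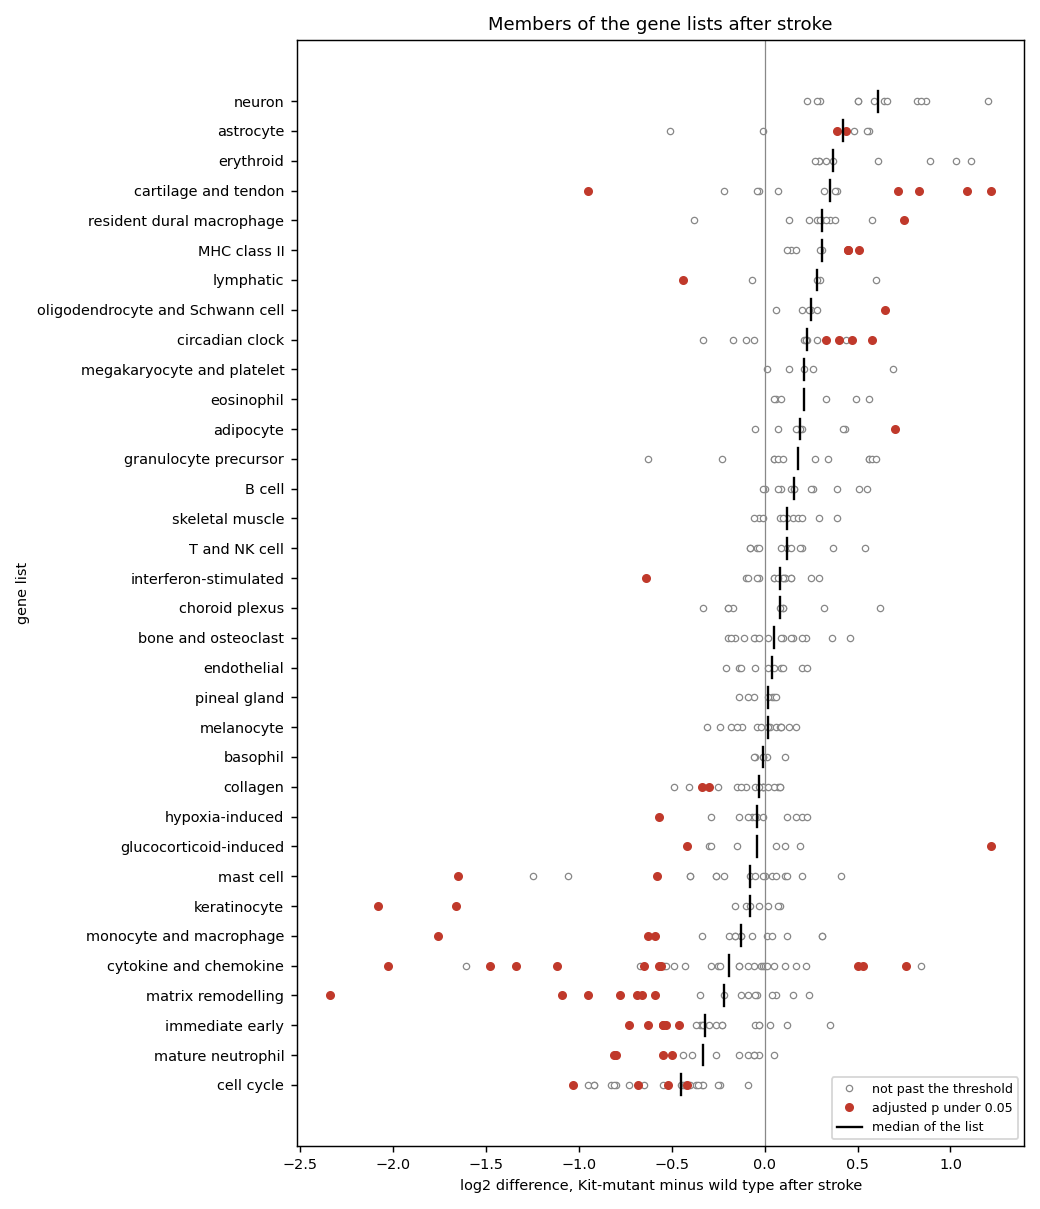
Kit-mutant minus wild-type log2 difference after stroke (horizontal axis) of every measured member of 34 gene lists, 1 row per list ordered by median; filled points passed the limma test at an adjusted p under 0.05, and the black bar is the list median. Cell cycle members all lie below 0 and neuron members all above 0.

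The naive levels did not enter the differences that chose the members, though the naive arrays shared in the variance estimate of the fit. With the compared groups alone in the fit 233 probe sets met the rule. In naive dura 2 probe sets passed between Kit-mutant and wild type (0.00924%; limma), Mcpt2 (-2.46 ± 0.31) and Vdr, the vitamin D receptor (0.91 ± 0.13), at 3412 with an unadjusted p under 0.05 (15.8%). The 2 calls depended on single arrays: 0 were left without wild-type naive array 2 or 3, deficient naive array 1 or engrafted naive array 2, 1 without deficient naive array 2 or engrafted naive array 3, 12 without wild-type naive array 1 and 10 without engrafted naive array 1. Of the 478 members 0 passed in naive dura, and 101 had an unadjusted p under 0.05 (21.1%). For members higher in both groups this was 47 of 158 (29.7%), 45 in the same direction as after stroke, and their naive median was 0.10. For members lower in both it was 54 of 320 (16.9%), near the share over all probe sets, with 29 in the same direction and 25 in the opposite, and a naive median of 0.00. Of the 3412 over all probe sets, 2475 had the same direction in both comparisons.

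Whether the difference after stroke departed from that in naive dura was tested as the difference between stroke responses, Kit-mutant minus wild type. It passed for 88 probe sets (0.407%; limma), 8 higher (0.037%) and 80 lower (0.37%). Among them were 75 of the 320 members lower in both groups and 4 of the 158 higher in both. These tests share the stroke arrays with the rule, which raises the members' counts. The smallest p among the lower ones belonged to Arg1 (-2.09 ± 0.14; limma adjusted p = 3.09e-06), Mmp3 (-2.26 ± 0.22), Serpinb9b (-1.99 ± 0.20), Prok2 (-2.11 ± 0.21) and Tnfrsf12a (-1.11 ± 0.13). Stroke raised Mmp3 by 4.21 ± 0.18 in wild type and by 1.95 ± 0.13 in the mutants, Serpinb9b by 2.45 ± 0.16 and 0.46 ± 0.11, and Prok2 by 2.71 ± 0.18 and 0.60 ± 0.12. For Tnfrsf12a the mutant response was 0.06 ± 0.07 (limma adjusted p = 0.829) against 1.17 ± 0.10 in wild type. The count of 88 was 47 without wild-type naive array 3, 52, 54 and 53 without wild-type stroke array 2, wild-type stroke array 3 and deficient stroke array 2, 58 and 149 without deficient naive array 1 and 2, and 54 without engrafted naive array 3. It was 30 with the neuron score as a covariate, 25 with the choroid plexus and neuron scores, and 15 without the 5 arrays lowest in Ttr, of which 3 are naive Kit-mutant arrays.

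Of the 8 higher, the 5 with the smallest p were Slc6a14 (1.00 ± 0.18), Kcnt1 (0.84 ± 0.17), Fmod (0.58 ± 0.12), Zkscan2 (0.64 ± 0.12) and Arxes2 (0.95 ± 0.18). Zkscan2 and Arxes2 are no members. After stroke neither passed between Kit-mutant and wild-type dura (0.15 ± 0.09 and 0.42 ± 0.13, limma adjusted p = 0.464 and 0.112). Arxes2 passed there under 1 of the 22 alternatives. It read 6.19 to 6.78 in wild-type, 6.64 to 6.72 in deficient and 6.88 to 7.12 in engrafted stroke arrays. Zkscan2 read 8.53 to 8.79 in naive mutant and 8.93 to 9.36 in naive wild-type arrays. Across all probe sets stroke changed 2352 in wild type (10.9%) and 649 in the mutants (3.00%), a difference in counts that was not tested as such.

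**Figure D5:**
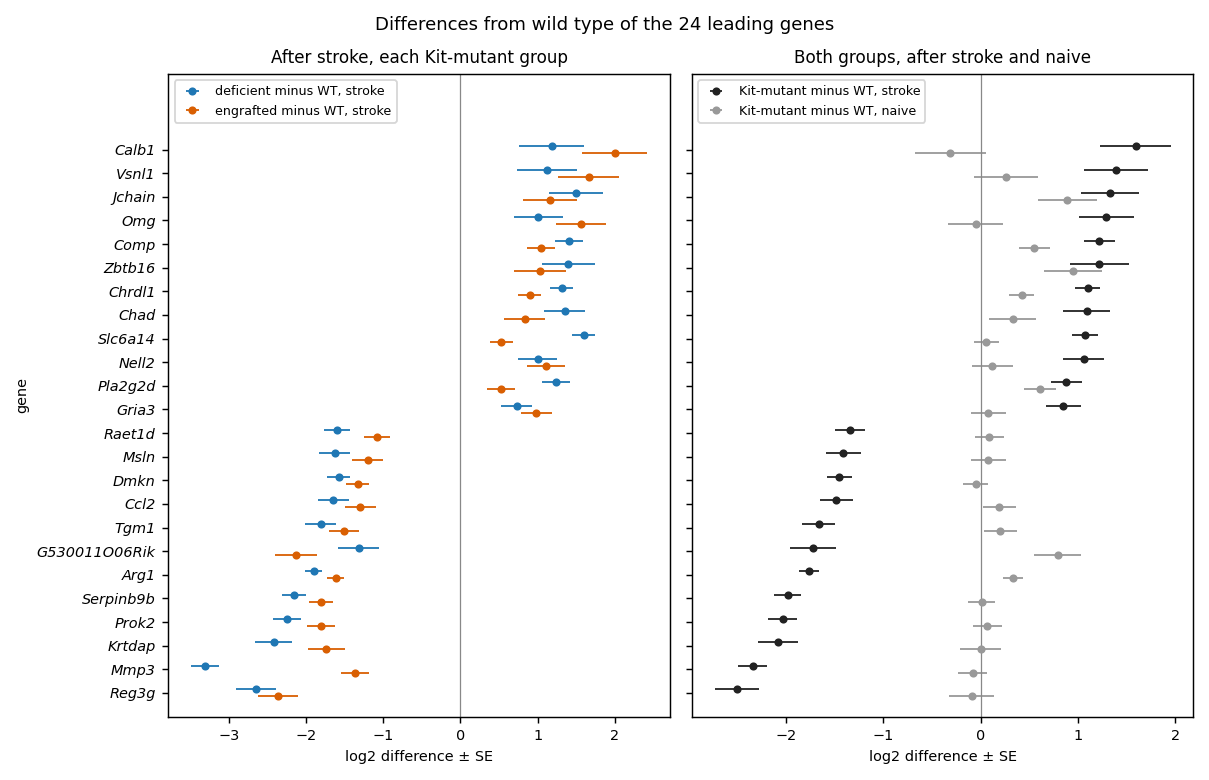
Log2 differences from wild type with SE (horizontal axes) of the 12 genes highest and 12 lowest in both mutant groups: at the left deficient and engrafted dura after stroke, at the right both groups together after stroke (black) and in naive dura (grey). After stroke both groups lie on the same side of 0 for every gene shown, which the rule requires, while the naive differences of the 12 lowest are near 0 except for G530011O06Rik (0.79).

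Between engrafted and deficient dura after stroke 6 probe sets passed (0.0277%; limma), and 1359 had an unadjusted p under 0.05 (6.28%). They were the mast cell genes Mcpt2 (4.39 ± 0.36), Cpa3 (3.91 ± 0.37), Mcpt4 (2.92 ± 0.37) and Fcer1a (1.26 ± 0.18), whose means in deficient dura lay below the lower quartile of the arrays, and the members Mmp3 and Slc6a14. Without engrafted stroke array 1 it was 39, and without engrafted stroke array 2 it was 10. For both Mmp3 and Slc6a14 engraftment brought the level part of the way to that of wild type. Of the 478 members, 127 had an unadjusted p under 0.05 in this comparison, which shares its arrays with the rule, and 388 had an engrafted difference from wild type nearer 0 than the deficient one (283 of the 320 lower and 105 of the 158 higher), against 12033 of all 21640. Missing the threshold does not show that engraftment left a gene alone: for Ccl2 the engrafted minus deficient difference was 0.35 ± 0.20 and for Tnfrsf12a 0.02 ± 0.10.

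The counts in each mutant group alone also depended on single arrays. For deficient dura (565) it was 226 and 246 without deficient stroke array 3 and 2, and 298 and 321 without wild-type stroke array 3 and 1. For engrafted dura (89) it was 333 without engrafted stroke array 2, and 29, 57, 54 and 40 without wild-type stroke array 3 or 2 and engrafted stroke array 1 or 3.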

How the data were processed

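Dura of 18 mice was measured on 1 Affymetrix array each. The deposited values are log2 summaries per probe set, for which the submitters' processing notes name RMA, affy and R 3.0.0 without saying what each did. Of 34760 probe sets, 21640 carried exactly 1 gene symbol and were tested; 1321 with several symbols and 11799 outside the annotation used were not. No value was rescaled and no probe set removed. limma 3.58.1 (R 4.3.3) estimated 1 mean for each of the 6 groups from the 18 arrays together (12 residual and 3.41 prior degrees of freedom), with Benjamini-Hochberg adjustment over all tested probe sets and a threshold of 0.05. Kit-mutant is the mean of the deficient and engrafted groups. P-values measure the spread between mice. If nothing differed, 1082 probe sets would have an unadjusted p under 0.05.

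The members, the comparisons and the 34 gene lists (462 entries) were chosen with earlier results of these data known. Named are Kit, the 12 genes furthest in each direction, up to 4 genes per list by smallest p, and up to 5 per direction in the difference between stroke responses and in engrafted against deficient dura. Of 954 genes with several probe sets, the brightest stands for the gene. The fit was tested on simulated data. Alternatives are given below. Python 3.11.15 with pandas 2.3.3 and matplotlib 3.10.9 made the tables and figures.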

Additional observations from a re-analysis of the deposited data

Results flagged for a closer look

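For these genes the stroke response of Kit-mutant dura differed from that of wild type, or engrafted from deficient dura after stroke, by the limma test of the difference itself. Values are log2 differences, Kit-mutant minus wild-type response. The response was smaller in the mutants for the protease and protease receptor genes Mmp3 (-2.26), Adamts4 (-1.16) and Plaur (-1.22), the secreted signals Prok2 (-2.11), Ccl2 (-1.67) and Il11 (-1.40), and the receptor Tnfrsf12a (-1.11). It was also smaller for the epidermal genes Krtdap (-2.07), Tgm1 (-1.85) and Dmkn (-1.40) and for Reg3g (-2.42). The myeloid genes Arg1 (-2.09) and Capg (-0.78), the inhibitor Serpinb9b (-1.99) and the stress ligand Raet1d (-1.43) followed. So did the surface glycoproteins Msln (-1.50) and Pdpn (-0.43), the lubricant Prg4 (-0.90), the AP-1 subunit Fosl1 (-0.82), the division gene Kif20a (-1.02) and the RIKEN transcript G530011O06Rik (-2.52). Krtdap and Reg3g in all naive groups, Raet1d in wild-type and engrafted naive and Arg1 in wild-type naive dura lay below the lower quartile of the arrays, where responses may be understated.

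The opposite sign held for Slc6a14 (1.00), Arxes2 (0.95), Kcnt1 (0.84), Zkscan2 (0.64), Fmod (0.58) and Tef (0.43). Stroke lowered the first 5 in wild type, and for Tef the wild-type response did not pass. After stroke, engrafted minus deficient dura was 4.39 for Mcpt2, 3.91 for Cpa3, 2.92 for Mcpt4, 1.26 for Fcer1a, 1.94 for Mmp3 and -1.08 for Slc6a14.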

How the results depend on the processing

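Counts are probe sets past the threshold, in the order Kit-mutant after stroke (491), both mutant groups (478), deficient (565), engrafted (89), engrafted against deficient (6), naive (2) and difference between responses (88). Array weights gave 1318 (48.5% higher, against 32.6%), 1214, 1743, 199, 49 for naive (63.3% higher, against 50%) and 226. Choroid plexus and neuron scores as covariates gave 93, 93, 334, 13, 14, 5 and 25. After the data were seen, the neuron score alone was added (52, 52, 205, 7, and 30 for the difference between responses), as were the granulocyte precursor score (30 engrafted, 3 engrafted against deficient, 107 naive, 151) and a fit without the 2 stroke arrays lowest in Ttr (161, 161, 153, 42, and 43). Without the 5 arrays lowest in Ttr it was 129, 128, 95, 28, 0 naive and 15. Only the compared groups gave 238, 233, 222, 0 engrafted and 0 naive, with fewer degrees of freedom. A minimum of 1.5-fold gave 168, 165, 271 and 58. All probe sets gave 7 in naive dura and a second quantile normalization 20 (65% higher). The stricter rule, an adjusted p in each group, gave 75. Leaving out each array in turn gave 152 to 735, 149 to 665, 226 to 593, 29 to 333, 4 to 39, 0 to 12 and 47 to 149.

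Same-numbered arrays of different groups deviated together no more than differently numbered ones. Their r was -0.61 to 0.60 over 45 pairs (median -0.06), against -0.56 to 0.60 (median 0.01). Values this widely spread cannot exclude that the numbers pair the mice. With the replicate block the counts were 378, 369, 424, 57, 6, 5 and 58. The other alternatives left the counts within 1.5 times. Of 67 named genes called, 22 kept the call under every alternative run, 45 lost it in at least 1 and 0 reversed. Kit, not called, changed sign without wild-type stroke array 1 or engrafted stroke array 2 (0.05 and 0.04, over a range of -0.14 to 0.05 without each array in turn).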
